A study of Mus musculus with 9 samples.

Results

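In mature adipocytes without Ets1, 5689 open chromatin sites were found that had no counterpart in the floxed controls and that lay outside every peak of the acetyl mark H3K27ac in either genotype. These EAKO-only unmarked sites were selected from measured values: a site is an ATAC peak of the EAKO list that overlaps, by 1 bp or more, no ATAC peak of Flox and no H3K27ac peak of EAKO or of Flox. They made up 6.87% (95% interval 6.70 to 7.04%) of the 82839 EAKO ATAC peaks and covered 2.39 Mb. EAKO adipocytes came from mice with both Ets1 alleles floxed and a Cre driven by the adipocyte promoter of Adipoq (Ets1 f/f × adipoq-cre), and Flox adipocytes from Ets1 f/f mice without Cre. Both were males on a C57BL/6J background, aged 8 to 10 weeks, and the cells were the floating fraction of inguinal white fat (iWAT), a fat depot beneath the skin. The lists that took no part in the choice were H3K27ac of EA+/+ (Ets1 ki/ki × adipoq-cre, an Ets1 knock-in switched on in adipocytes) and of its control EC+/+ (Ets1 ki/ki without Cre), and Ets1 itself in adipocytes of wild type mice at room temperature (RT), after 7 days of cold stress (CS), and in beige adipocytes grown for 6 days from stromal cells of mice aged 3 to 4 weeks. Each of these 9 lists came from 1 library, and each group was a single sample; whether a sample pooled animals was not given in the sources used here. No difference between genotypes could be tested, so shares carry Wilson 95% intervals, and their differences Newcombe 95% intervals, which cover counting error only.

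ATAC marks DNA that a transposase can reach. An open site can be an active promoter or enhancer, where histone H3 is usually acetylated at lysine 27, or it can be open for another reason. One well known class of open sites with little acetylation is bound by CTCF, a zinc finger protein that stops the cohesin ring as it extrudes DNA and so sets the ends of chromatin loops. CTCF recognises a long motif whose 12-base core is called the CTCF core here, and a bound protein shields the DNA under it from the transposase. Ets1, the protein removed from EAKO adipocytes, is a transcription factor of the ETS family that recognises GGAA.

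Of 6 motifs searched (CTCF core, ETS, AP-1, C/EBP, EBF and DR1), the CTCF core differed most in frequency between the EAKO-only unmarked sites and other EAKO ATAC peaks of like strength, and 915 of the 5689 sites held one. No open motif search was run. The following stretches show it in 6 of the strongest sites that carry one outside exons, read 5′ to 3′ on the strand of the core from RefSeq's GRCm38.p6 genome, the build of the peak lists (mm10). Capitals mark the 12 bases of the core, with 24 bases on each side, and the positions given are those of the whole stretch. The stretch of Tbx18 lies at chr9:87708327-87708386 on the plus strand, in an intron, and that of Fpgs at chr2:32689552-32689611 on the plus strand, in an intron. The stretch of Atp7b lies at chr8:22048267-22048326 on the minus strand, in an intron, and that of Gja3 at chr14:57060215-57060274 on the minus strand, between genes. The stretch of Poc1b lies at chr10:99190925-99190984 on the plus strand, in an intron, and that of Necap2 at chr4:141065317-141065376 on the minus strand, between genes. Tbx18 and Necap2 matched the core with no mismatch and the others with 1.
Tbx18: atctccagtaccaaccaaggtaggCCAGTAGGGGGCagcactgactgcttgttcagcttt
Fpgs: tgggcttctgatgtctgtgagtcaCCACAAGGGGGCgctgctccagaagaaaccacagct
Atp7b: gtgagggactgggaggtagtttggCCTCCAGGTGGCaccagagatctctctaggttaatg
Gja3: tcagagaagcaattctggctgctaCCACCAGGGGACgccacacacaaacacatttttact
Poc1b: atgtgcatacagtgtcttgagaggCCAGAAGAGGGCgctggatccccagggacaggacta
Necap2: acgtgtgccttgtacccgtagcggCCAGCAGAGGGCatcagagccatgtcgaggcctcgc

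A larger number of sites, 1382, held the AP-1 motif TGANTCA, which is read by dimers of Jun and Fos proteins. The AP-1 motif is shown in capitals in 3 of the strongest sites, from the same genome and on the plus strand. The stretches lie upstream of Gpr37l1 at chr1:135188361-135188415, in an intron of Ptprm at chr17:67351568-67351622, and upstream of Golga7 at chr8:23262007-23262061.
Gpr37l1: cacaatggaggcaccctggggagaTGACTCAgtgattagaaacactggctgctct
Ptprm: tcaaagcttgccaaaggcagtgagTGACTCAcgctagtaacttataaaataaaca
Golga7: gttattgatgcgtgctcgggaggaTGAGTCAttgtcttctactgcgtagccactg

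The EAKO-only unmarked sites were mostly weak and narrow peaks. Their −log10 q, the peak caller's measure of how far a peak stands above its surroundings, had a median of 4.48, with quartiles at 3.29 and 6.43 and a highest value of 37.8. In the peaks shared with Flox the median was 10.5 without H3K27ac and 25.3 with it. The median width was 382 bp, against 573 bp in shared unmarked peaks and 891 bp in shared acetylated peaks. The median fold enrichment over the local background was 3.28 (highest 8.48). These values bear on the choice of the sites and are given as a description only.

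The share of a list taken by such sites fell with the strength of its peaks. In the EAKO list it was 48.8% of the peaks with −log10 q under 2, 31.1% of those from 3 to 4, 15.4% from 5 to 7, 2.96% from 10 to 15 and 0.283% from 20 to 30. None of the 12902 EAKO ATAC peaks at 50 or above was EAKO-only and unmarked, which allows a share of up to 0.0233% (3 counts of the total). In all, 8.98% of EAKO ATAC peaks overlapped no Flox ATAC peak, and 16.6% of Flox ATAC peaks overlapped no EAKO ATAC peak. The same rule with the genotypes exchanged gave 10503 Flox-only unmarked sites, 11.8% of the 88977 Flox ATAC peaks.

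**Figure D1:**
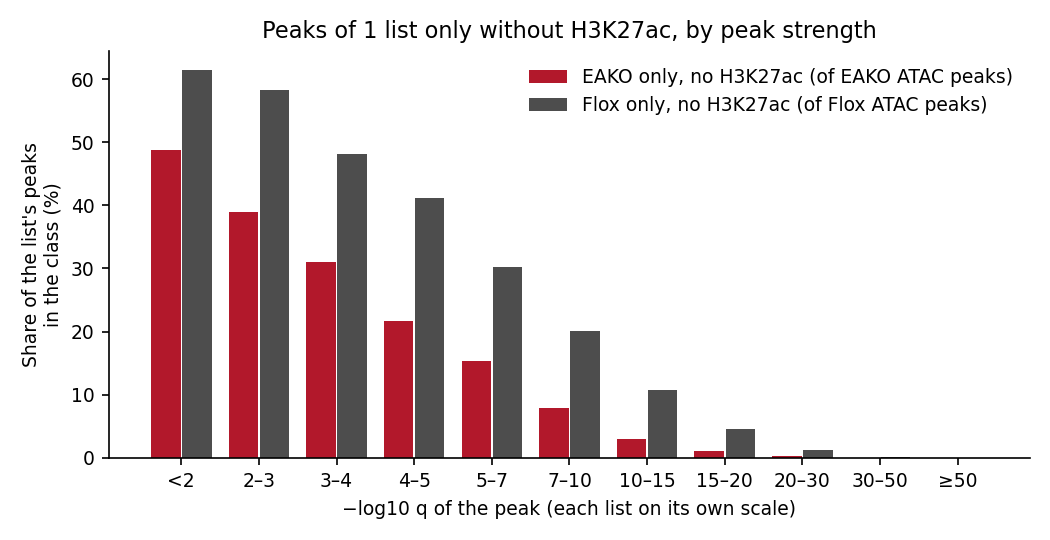
The vertical axis gives the percentage of peaks in each class of −log10 q (horizontal axis) that were in 1 list only and without H3K27ac, in red for EAKO ATAC peaks and in grey for Flox ATAC peaks. In both lists the share is highest among weak peaks, and in EAKO it reaches 48.8% in the lowest class.

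Many sites lay close to a Flox peak without touching it. The gap to the nearest Flox ATAC peak had a median of 4948 bp, was under 1 kb for 726 sites (12.8%) and was 10 kb or more for 1583 sites. At the edge of the rule, the 52 sites within 100 bp of a Flox peak had a median −log10 q of 3.02 and a highest of 7.13. The 154 shared unmarked peaks just outside it, with an overlap under 100 bp, had a median of 3.59 and a highest of 14.2. Weak peaks near the calling limit can fall on either side of that limit in 1 library, and with a single library per genotype the part this played was not tested. Likewise, a change in chromatin within adipocytes and a change in the mix of cells in the floating fraction cannot be told apart.

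Promoters of adipocyte genes were open, but marker promoters did not single out adipocytes. Of 35 adipocyte genes, 26 had an ATAC peak within 1 kb of a transcription start site (TSS) in EAKO and 27 in Flox. Genes of other cells had open promoters too: 17 of 23 stem and progenitor genes in EAKO and 20 in Flox, 8 of 10 mural genes in EAKO and 9 in Flox, 7 of 10 Schwann genes in each genotype, and 13 of 20 endothelial genes in EAKO and 15 in Flox. Mesothelial genes had 6 of 10 in each genotype, skeletal muscle genes 6 of 10 in EAKO and 5 in Flox, and lymphocyte genes 10 of 24 in each. Macrophage genes had 5 of 22 in each, and epithelial genes 2 of 10 in EAKO and 3 in Flox. The share of all protein-coding genes with an open promoter is not given here, so these counts do not show which cells were present. The part of other cells in the EAKO-only unmarked sites was not tested.

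CTCF cores were more than 2 times as frequent in the EAKO-only unmarked sites as in other EAKO ATAC peaks of like strength. A core within 100 bp of the summit, on either strand and with at most 1 mismatch, was found in 915 of 5689 sites, or 16.1% (15.2 to 17.1%). In the other EAKO ATAC peaks, with each of 11 classes of −log10 q weighted by the number of sites in it, the share was 6.89%. The difference was 9.20 percentage points (8.21 to 10.2) and the ratio 2.34. The core without any mismatch gave 4.61% of sites and 1.81% of the other peaks of like strength. As a background, windows moved 1 kb downstream of the summit held a core in 2.13%. The core read backwards occurred in 0.246% of sites, but those letters begin with a CG pair that the core consensus lacks.

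Those other peaks included acetylated ones, which the rule kept out of the sites. The difference was smaller against peaks that also lacked H3K27ac. Of like strength, shared unmarked peaks held a core in 10.7%, EAKO-only acetylated peaks in 4.70% and shared acetylated peaks in 3.29%. The EAKO-only unmarked sites stood 5.42 points above the shared unmarked peaks. Class by class, the difference from shared unmarked peaks was 2.65 points (0.714 to 4.55) at a −log10 q of 2 to 3, with 5.77% of sites against 3.13%. It was 4.85 points (2.50 to 7.35) at 5 to 7, with 17.7% against 12.9%. At 7 to 10 it was 12.2 points (8.83 to 15.7), with 30.7% of 769 sites against 18.5% of 4412 shared peaks. At 10 to 15 the shares were 39.7% and 27.4%, and at 15 to 20 they were 48.8% and 35.0%. From 20 to 30 the shares of 53.3% of 30 sites and 42.0% did not differ beyond counting error, nor did those under 2, where 3.00% of sites and 6.33% of shared peaks held a core. Without weighting, shared unmarked peaks, which were stronger, held a core in 24.3%.

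**Figure D2:**
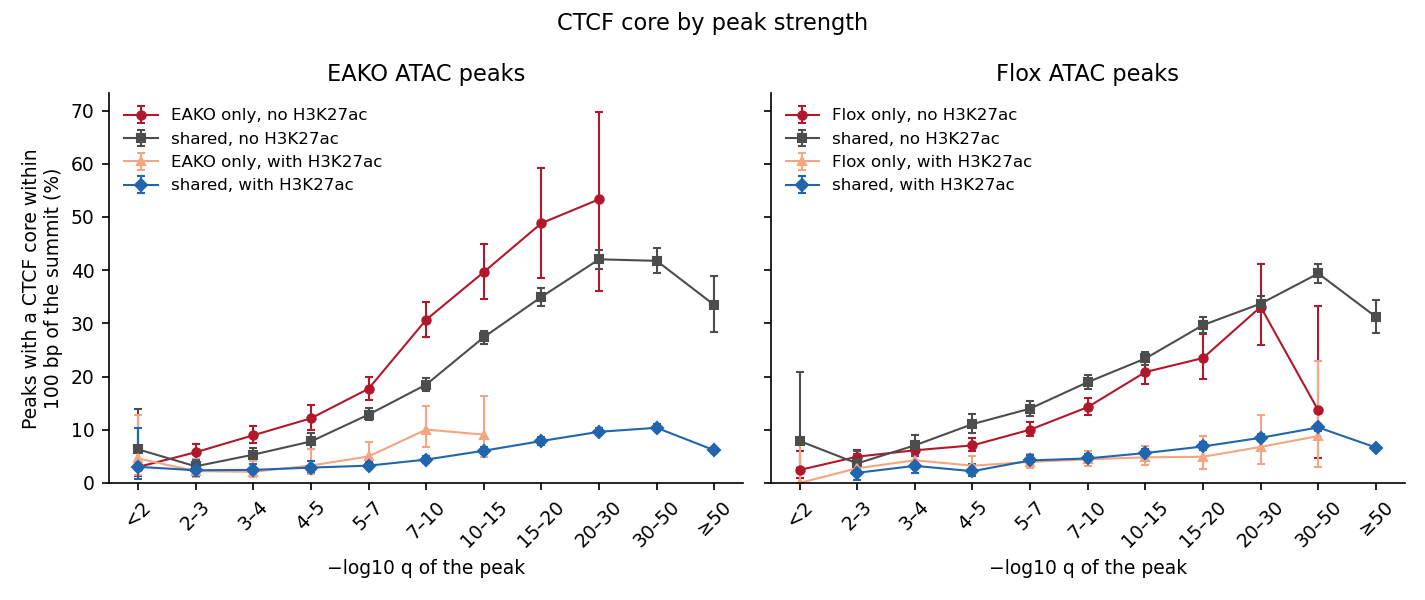
Each point is the percentage of peaks with a CTCF core within 100 bp of the summit (vertical axis) in a class of −log10 q (horizontal axis), for EAKO ATAC peaks on the left and Flox ATAC peaks on the right, split by list and H3K27ac; bars are Wilson 95% intervals and classes with under 20 peaks are left out. EAKO-only unmarked peaks lie above shared unmarked peaks from 2 to 20, reaching 30.7% against 18.5% at 7 to 10, whereas Flox-only unmarked peaks lie at or below shared ones from 3 upward.

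In the mirror set, the order of unmarked peaks was the other way round. Of the 10503 Flox-only unmarked sites, 1142 (10.9%) held a core, 2.23 points (1.55 to 2.94) above other Flox ATAC peaks of like strength. Shared unmarked peaks of the Flox list held one in 13.8% at like strength, more than the Flox-only sites. In the class from 7 to 10, 14.3% of Flox-only unmarked sites held a core against 18.95% of shared unmarked peaks, a difference of -4.69 points (-6.76 to -2.55). Set directly beside each other, the EAKO-only sites exceeded the Flox-only sites by 5.21 points (4.10 to 6.35), although their −log10 q was on another list's scale. The lists as a whole were close, with a core in 12.8% of EAKO and 12.4% of Flox ATAC peaks. Among unmarked peaks with a core, 13.3% were EAKO-only in the EAKO list and 15.8% Flox-only in the Flox list. Among unmarked peaks without a core these shares were 20.3% in EAKO and 34.0% in Flox. These shares were not weighted by strength, and peaks with a core were the stronger ones. At like strength the order in the EAKO list was the reverse: at a −log10 q of 5 to 7, 32.7% of 658 unmarked peaks with a core were EAKO-only against 24.96% of 4002 without (difference 7.71 points, 3.98 to 11.6), and at 7 to 10, 22.4% of 1052 against 12.9% of 4129 (9.52 points, 6.89 to 12.3). In the Flox list, unmarked peaks with a core were Flox-only less often in the same classes, by -9.24 points (-13.5 to -4.84) at 5 to 7 and -7.32 points (-10.5 to -3.98) at 7 to 10.

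The core lay beside the summit and seldom under it. In the EAKO-only unmarked sites the centre of the core was a median of 32.5 bp from the summit. It was 20 to 40 bp away in 587 of the 915 sites (64.2%) and under 10 bp in 36 (3.93%). Shared unmarked peaks gave the same median of 32.5 bp, with 1.82% of cores under 10 bp from the summit. Flox-only unmarked sites gave 31.5 bp and 3.33%. Summits beside the core are known from ATAC at sites where CTCF sits on the DNA. Here neither cuts over the core nor binding were measured, and offsets of other motifs were not computed. The strands were even, with 453 cores on the plus strand and 462 on the minus strand.

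**Figure D3:**
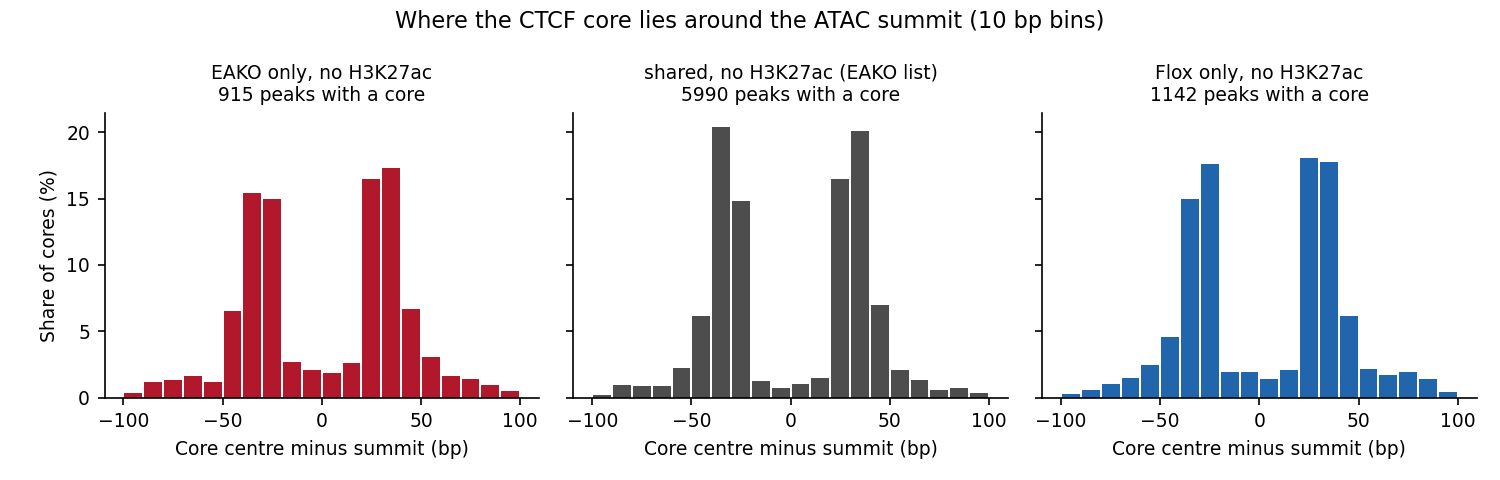
Each bar is the percentage of cores (vertical axis) whose centre lies in a 10 bp bin at that distance from the ATAC summit in bp (horizontal axis), for EAKO-only unmarked sites on the left (915 cores), shared unmarked peaks of the EAKO list in the middle (5990 cores) and Flox-only unmarked sites on the right (1142 cores). All 3 sets peak at 20 to 40 bp on both sides and dip at the summit, where 3.93% of the EAKO-only cores lie within 10 bp.

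Without weighting for strength, cores of the EAKO-only unmarked sites had a mismatch and lay in repeats more often than those of shared unmarked peaks. Of the 915 cores, 262 had no mismatch, 28.6% (25.8 to 31.6%), against 38.2% (37.0 to 39.5%) in shared unmarked peaks. The core was soft-masked in the genome, which marks interspersed and simple repeats, in 180 sites, 19.7% (17.2 to 22.4%), against 11.2% (10.4 to 12.0%) in shared unmarked peaks. Flox-only unmarked sites were between these, at 31.2% without mismatch and 16.4% soft-masked. Shared acetylated peaks were at 29.6% (28.1 to 31.1%) without mismatch and 7.13% soft-masked. At like strength, 10.7% of shared unmarked peaks held a core and 3.26% held one without mismatch. In the EAKO-only unmarked sites these shares were 16.1% and 4.61%.

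Sites with a core differed from sites without one in more than the core. Their median −log10 q was 6.43, against 4.13 in the 4774 sites without a core. AP-1 motifs were in 8.31% of sites with a core and 27.4% of sites without. Only 76 sites held both motifs, 839 held the CTCF core alone, 1306 held AP-1 alone, and 3468 held neither. A promoter was touched by 5.14% of sites with a core and 7.92% of those without, and any Ets1 peak by 1.75% and 3.29%.

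The 10 strongest sites with a core had −log10 q values from 21.9 to 26.3. The strongest lay in an intron of Tbx18 (chr9:87708147-87708733), which encodes a T-box transcription factor, with a −log10 q of 26.3, a core 22.5 bp from the summit and the nearest Flox ATAC peak 20774 bp away. Next came an intron of Fpgs, the enzyme that adds glutamates to folate, at 26.1, and the promoter of Cpne4, a calcium-dependent membrane-binding protein, at 25.3. A site in an intron of Nxpe3, nearest to the TSS of Nfkbiz, a nuclear regulator of NF-κB, had a value of 25.2, and sites in introns of Atp7b, a copper transporter, and Gpm6b, a membrane glycoprotein, had 24.3 each. The others were nearest Gja3, a gap junction protein, at 22.9, Poc1b, a centriole protein, at 22.4, Polq, a DNA repair polymerase, at 22.4, and Necap2, an endocytosis protein, at 21.9. The Poc1b site was 73.6% soft-masked within 100 bp of the summit. Of these 10 sites, only the one near Necap2 overlapped an Ets1 peak, in beige cells.

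The strongest EAKO-only unmarked sites of all had mixed features. The top one lay 20700 bp upstream of Gpr37l1, an orphan receptor, at chr1:135188309-135188638, with a −log10 q of 37.8 and an AP-1 motif. Of the other 9 of the 10 strongest, 3 also held AP-1, in Ptprm, a receptor phosphatase, at 29.0, in Fpgs at 26.1, and near Golga7, a partner of palmitoyl transferases, at 25.3. Sites in Rbfox3, a splicing factor best known from neurons, and in Ror1, a receptor for Wnt5a, both at 25.3, held neither motif. The sites in Tbx18 and at Cpne4, described above, held a CTCF core. The other 2 of the 10 lay in repeats: the site near Scaf8 (37.5) was 80.6% soft-masked and the site near Sfi1 (27.5) was 87.1% soft-masked. Both also overlapped an Ets1 RT peak, and the one near Sfi1 an Ets1 CS and an EC+/+ H3K27ac peak as well. Reads in such repeats can come from several copies, and the share of signal from other copies was not tested.

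The EAKO-only unmarked sites lay at promoters less often than other open sites of like strength. A promoter window, 1 kb on each side of a TSS of a protein-coding gene, was touched by 425 sites, 7.47% (6.82 to 8.18%), against 15.4% of other EAKO ATAC peaks of like strength, a difference of -7.91 points (-8.76 to -7.01). Shared unmarked peaks of like strength were at 11.1%. Exons outside promoters held 7.10% of sites against 6.04% of other peaks, introns 41.0% against 40.3%, and intergenic sequence 44.5% against 38.2%. Shared unmarked peaks of like strength were intergenic in 44.1%. The distance from summit to nearest TSS had a median of 15563 bp, against 16909 bp in shared unmarked and 10301 bp in shared acetylated peaks, and 728 sites were over 100 kb away. Flox-only unmarked sites were farther out, with a median of 21103 bp, yet touched promoters more often, at 9.44%, a difference of -1.96 points (-2.84 to -1.07) for EAKO-only minus Flox-only sites. With promoter windows of 3 kb that difference was 0.747 points (-0.446 to 1.96), which includes 0.

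**Figure D4:**
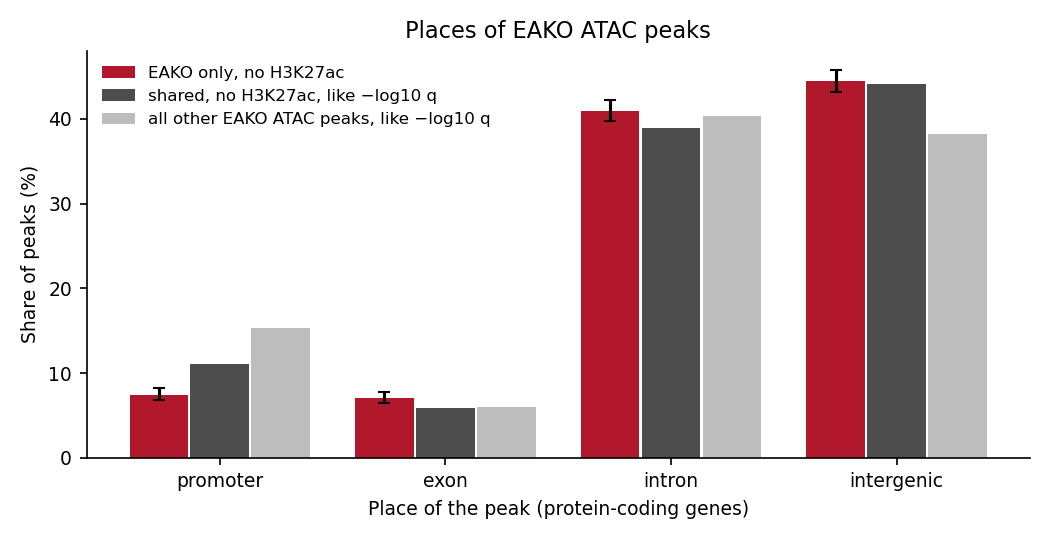
Bars give the percentage of EAKO ATAC peaks (vertical axis) at promoters, exons, introns and intergenic sequence (horizontal axis), in red for EAKO-only unmarked sites with Wilson 95% intervals, in dark grey for shared unmarked peaks and in light grey for all other peaks, the greys weighted to like −log10 q. Promoters hold 7.47% of the red set, 11.1% of the dark grey and 15.4% of the light grey.

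Most genes with a site in a promoter window also had a Flox ATAC peak in one. The same count over all genes with an EAKO ATAC peak at a promoter was not made. The 425 promoter sites touched windows of 430 genes, and 326 of these genes had a Flox ATAC peak in a window as well, whereas 104 had none. The strongest promoter site was at Cpne4, 77 bp downstream of a TSS, with a −log10 q of 25.3, a CTCF core and the nearest Flox ATAC peak 4747 bp away. The 9 that followed had values from 14.5 to 19.6. They were at Mcmbp, a partner of the replicative helicase (19.6), Prpsap1, a regulator of nucleotide precursor synthesis (17.7), Polr2c, a subunit of RNA polymerase II (16.6), and Afp, the fetal serum protein (15.9). The others were at the integrin gene Itgb6 (15.5), the phosphatase gene Ptpn18 (15.1), Tns1 (14.9) and Pxn (14.6), whose products sit at cell adhesions, and the interferon-induced Isg15 (14.5). Of these 10 strongest, 7 held a CTCF core, among them Prpsap1 and Polr2c with no mismatch. Of all 425 promoter sites, only 47 held a core, and cores were more frequent in stronger sites. The sites at Mcmbp and Pxn overlapped an Ets1 peak of beige cells.

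H3K27ac was rare at these sites in the libraries that the rule had not used. An EA+/+ H3K27ac peak overlapped 94 of the 5689 sites, 1.65%, and an EC+/+ peak 82 sites, 1.44%, with 20 sites in both. Other EAKO ATAC peaks of like strength overlapped an EA+/+ peak in 9.22% and an EC+/+ peak in 9.34%. Shared unmarked peaks of like strength were at 2.45% and 2.27%, and EAKO-only acetylated peaks at 12.0% and 12.5%. Either list overlapped 156 sites, 2.74%, against 14.1% of other peaks of like strength, a difference of -11.3 points (-12.0 to -10.6). Those other peaks include the acetylated ones that the rule kept out of the sites, so the difference follows in part from the rule. Shared unmarked peaks of like strength were at 3.96% for either list, and Flox-only unmarked sites at 3.69%. The EA+/+ and EC+/+ lists were shorter than the lists used by the rule, with 38484 and 33713 peaks against 74682 in EAKO and 86834 in Flox. The strongest site with such a peak was the repeat near Sfi1. Next were an intron of Sfxn5, a mitochondrial carrier, with an EA+/+ peak (15.04), and a site near Rptn with an EC+/+ peak (14.5).

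Ets1 peaks were also few. Ets1 overlapped 135 sites in beige cells, 2.37%, against 7.41% of other EAKO ATAC peaks of like strength, a difference of -5.04 points (-5.54 to -4.48). In CS it overlapped 35 sites, 0.615%, against 1.97%, and in RT 14 sites, 0.246%, against 0.301%. Against shared unmarked peaks of like strength the shares were lower in beige cells, at 2.37% and 3.96%, close in CS, at 0.615% and 0.551%, and higher in RT, at 0.246% and 0.0791%. The RT share also exceeded that of Flox-only unmarked sites, 0.0857%, by 0.160 points (0.0346 to 0.332). Of the 14 sites with an RT peak, 12 were over 50% soft-masked within 100 bp of the summit. Only 2 sites were in both the beige and the CS lists, and 16 held a CTCF core along with any Ets1 peak. In all, 5385 sites had neither an Ets1 peak nor an H3K27ac peak of EC+/+ or EA+/+. Among the strongest with an Ets1 peak and under 50% soft-masked were those near Golga7, Necap2 and Mcmbp already named, one at an exon where Ppp2r1b and Sik2 overlap (19.5), and a site near Tfe3, a regulator of lysosome and autophagy genes (15.04), all with beige peaks. A site nearest to Ddx19a, an RNA helicase, in an intron of St3gal2, also had a beige peak (19.6) and was 51.2% soft-masked. An intron of Csf1, the macrophage growth factor, carried a CS peak (14.8).

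**Figure D5:**
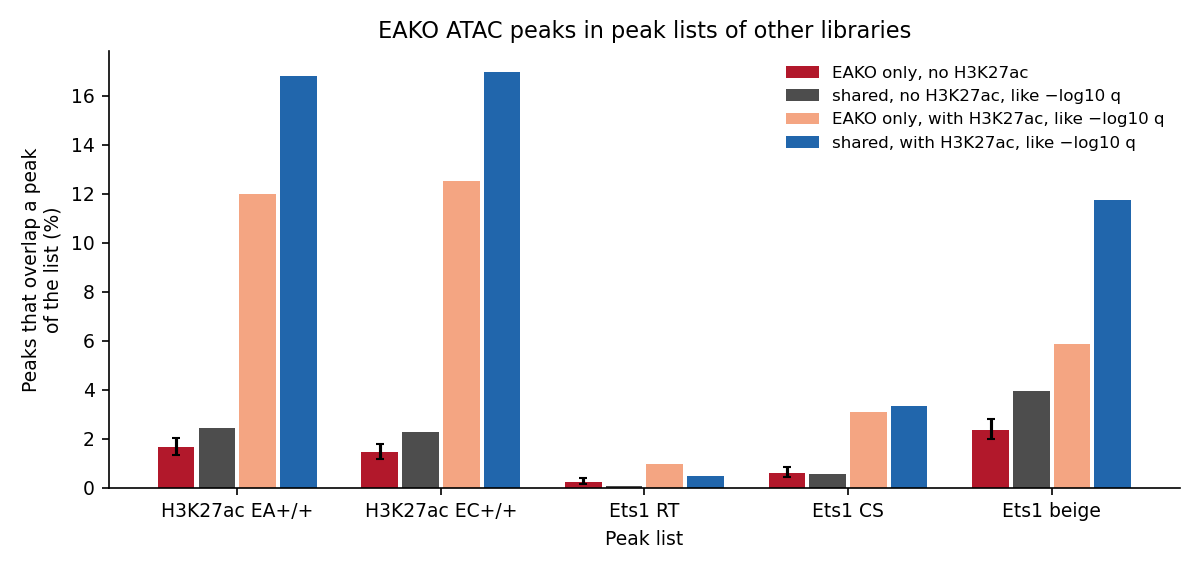
Bars give the percentage of EAKO ATAC peaks (vertical axis) that overlap a peak of each list named on the horizontal axis, in red for EAKO-only unmarked sites with Wilson 95% intervals and in the other colours for the other sets weighted to like −log10 q. The red bars reach 1.65% in EA+/+ H3K27ac, 1.44% in EC+/+ H3K27ac and 2.37% in beige Ets1, below both acetylated sets in every list.

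The other motifs differed from other peaks of like strength by far less than the CTCF core. AP-1 was in 24.3% of sites and 22.1% of other EAKO ATAC peaks of like strength, a difference of 2.19 points (0.947 to 3.47), with 5.64% in windows 1 kb downstream. Shared unmarked peaks held it in 23.6% and Flox-only unmarked sites in 24.9%. The ETS motif CCGGAAGT was in 10 sites, 0.176%, against 0.247% of other peaks, a difference of -0.0712 points (-0.178 to 0.0925). It was in 0.105% of windows 1 kb downstream. The same letters read backwards, which lack its CG pair, were in 1.11% of sites. The motif of C/EBP factors, TTGCNNAA, which adipocytes use widely, was in 9.30% of sites, against 10.5% of other peaks (difference -1.23 points, -2.09 to -0.323) and 8.03% of windows 1 kb downstream. Flox-only unmarked sites held it in 12.3%, so that EAKO-only sites were 3.03 points lower (-4.00 to -2.04). The EBF motif (TCCC, any 2 bases, GGGA) was in 0.914% of sites and 1.08% of other peaks, and the DR1 motif read by PPARγ with RXR in 0.773% and 0.894%; neither differed beyond counting error.

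The sites were spread thinly over the genome. They were 5.66% of EAKO ATAC peaks on chromosome 17 at the low end and 8.15% (6.87 to 9.66%) on X at the high end of chromosomes with over 100 peaks, and 2 of the 14 peaks on Y. On X the Flox-only unmarked sites were also frequent, at 17.4% of Flox ATAC peaks. The nearest genes numbered 4235, and 3209 of them were nearest to exactly 1 site. The densest windows of 1 Mb held 14 sites of 73 EAKO ATAC peaks (chromosome 18, from 80 Mb) and 13 of 95 (chromosome 11, from 3 Mb). Of those 13, 3 were nearest to Sfi1. Next were 12 of 77 (chromosome 11, from 35 Mb) and 12 of 81 (chromosome 11, from 118 Mb). Windows with 11 followed, of 92 peaks on chromosome 5 from 135 Mb, of 95 on chromosome 17 from 34 Mb and of 114 on chromosome 11 from 117 Mb. The most sites within a gene body were 31 of 441 peaks in Gm20388, a gene model of 4435 kb that runs over many other genes, a share close to the 6.87% of the whole list. Slit3, an axon guidance and secreted factor, held 9 of the 59 EAKO ATAC peaks in its body. Rbfox3 held 7 of 19, Dst, a cytoskeletal linker, 7 of 47, Snd1, a nuclease, 7 of 29, Pard3, a polarity protein, 7 of 38, and Fgfr2, annotated over 2961 kb, 7 of 168. In Rbfox3 and Pard3 the Flox-only unmarked sites numbered 2 each, in Slit3 13. Chosen after its values were seen, Smim15 was nearest to 11 sites, more than any other gene, and to 4 Flox-only sites.

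Around the deleted gene itself, 4 of the 50 EAKO ATAC peaks within 250 kb of Ets1 were EAKO-only unmarked sites, and 4 of the 49 Flox ATAC peaks were Flox-only unmarked sites. None lay in the Ets1 gene body. The strongest were at chr9:33003849-33004326 (−log10 q 13.9) and chr9:32778797-32779208 (10.8), downstream of the gene. Around Adipoq, the adipokine gene whose promoter drives the Cre, the counts were 2 of 33 in EAKO and 2 of 34 in Flox.

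Genes of fat cell function had few of these sites, at shares near those of other EAKO ATAC peaks. Adipocyte genes were nearest to 8 sites, 0.141% against 0.171% of other peaks. The strongest was 3281 bp upstream of Adrb3, the β3-adrenergic receptor (10.1), followed by a site at an exon of Acaca, the first enzyme of fatty acid synthesis (7.13), and one in an intron of Tshr, the thyrotropin receptor (5.11). All 3 held a CTCF core. Thermogenic genes were nearest to 13 sites, 0.229% against 0.237%. Among them were a site 2211 bp upstream of Dio2, which activates thyroid hormone (14.2), and one downstream of Gk, the glycerol kinase (8.58), each with a core. For each gene list, cores are given only for the strongest sites, up to 3. Of all sites, 16.1% held a core, and stronger sites held one more often.

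Core autophagy genes, which the study ties to Ets1, had a share near that of other EAKO ATAC peaks. Mitochondrial genes, which it ties to Ets1 too, had few sites but a higher share. Core autophagy genes were nearest to 17 sites, 0.299% (0.187 to 0.478%) against 0.271%, led by Tfe3 with a core (15.04), Atg7, the enzyme that starts both conjugation steps (7.84), and Atg4c, a protease of the same route (7.18). Genes of mitochondrial biogenesis and respiration were nearest to 10 sites, 0.176% (0.0955 to 0.323%) against 0.0907%. These included sites near Cox5a (11.3) and Sdhd (7.81), each with a core, and near Uqcrc2 (10.9), all subunits of the respiratory chain. Imprinted genes, many of them known for CTCF sites, were nearest to 17 sites, 0.299% (0.187 to 0.478%) against 0.162%. Sgce (10.1), Igf2r (8.63) and Rtl1 (5.76) led, with no core in those 3. Flox-only unmarked sites were near imprinted genes at a similar share, 0.257% (27 sites). Genes of CTCF and cohesin were nearest to 6 sites, 0.105% (0.0483 to 0.230%) against 0.0609%, with Flox-only unmarked sites at 0.0381%. Sites in introns of Pds5b (5.76), Pds5a (3.87) and Ctcfl (2.74) were among the 6. ETS factors and partners had 11 sites, 0.193% against 0.255%, the 3 strongest all nearest to Ets1.

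Markers of other cell types were counted in the same way. Stem and progenitor genes were nearest to 12 sites, 0.211% against 0.254% of other EAKO ATAC peaks, led by a site nearest to Thy1 (12.5) and 2 in Col3a1 (9.17 and 7.28). Macrophage genes had 5, 0.0879% against 0.0765%, one at the promoter of the chemokine receptor gene Cx3cr1 with a core (9.73), and sites nearest Ptprc and in Mrc1 (3.29 each). Lymphocyte genes had 9, 0.158% (0.0833 to 0.300%) against 0.0933%, led by Pax5 (11.7 and 8.58) and Klrb1c (10.5). Endothelial genes had 7, 0.123% against 0.159%, led by Vwf (6.53), Prox1 (4.60) and Eng (4.55). Muscle genes had 3, 0.0527% (0.0179 to 0.155%) against 0.0169%, with Myod1 the strongest (10.1). The others were 1 at a mesothelial gene, Krt19 (6.43), 0.0176% against 0.0350%, 2 at mural genes, led by Des (3.87), 0.0352% against 0.0531%, and 2 at Schwann genes, led by Pmp22 (7.13), 0.0352% against 0.0583%. None of the 5689 sites was nearest to any of the 10 epithelial genes, with a Wilson upper bound of 0.0675%, against 51 other EAKO ATAC peaks (0.0661%). Of the 16 lists, the interval of the sites' share lay above the share of other EAKO ATAC peaks in 3 (mitochondrial, imprinted and skeletal muscle genes, with 10, 17 and 3 sites) and below it in 0, with no correction for the number of lists and no weighting for strength. In the same 3 lists the shares of Flox-only unmarked sites were 0.0762%, 0.257% and 0.00952%.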

How the data were processed

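The authors aligned read pairs with BWA to mm10 and called peaks per library with MACS2 at a q-value under 0.05. A control library and removal of regions with excess signal are not given in the sources used here. The deposited lists give each peak's score, fold enrichment (a linear ratio), −log10 p, −log10 q and summit offset. They hold no read counts, and the library read totals stated by the study did not enter; the effect of depth on the lists was not examined. The EAKO-only unmarked sites and the gene lists were chosen with earlier results of these data known. Overlaps (1 bp or more), nearest TSSs and motifs were computed in Python 3.11.15 with numpy 2.4.6 and pandas 2.3.3, and overlaps and motif searches were tested on simulated data. Annotation was GENCODE M21, with 93459 TSSs of 21938 protein-coding genes. Motifs were searched on both strands within 100 bp of the summit, overlapping motifs being counted each. The CTCF core is a 12-letter consensus with at most 1 mismatch, DR1 one with at most 1 mismatch, and the others allowed none. For like strength, other peaks were weighted by class of −log10 q, with lower bounds of 0, 2, 3, 4, 5, 7, 10, 15, 20, 30 and 50; the interval of such a difference joins the Wilson interval of the sites with the counting error of each class. Named are the 10 strongest sites of all, of those with a core and of those at promoters, up to 3 per gene list, the 5 gene bodies (with ties) and 1 Mb windows with most sites, and those around Ets1 and Adipoq. Values of different lists were not divided by each other.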

Additional observations from a re-analysis of the deposited data

How the results depend on the processing

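Each of 8 results was computed under up to 12 other settings, 56 values in all, of which 6 were chosen after seeing the data. The CTCF core difference, the only result with a direction, kept its sign under every setting. Of the 56 values, 33 stayed within the counting interval of the reported one (for counts of sites, within 1.5 times). Keeping EAKO ATAC peaks of −log10 q of at least 3 gave a CTCF core share of 18.98% and a difference from peaks of like strength of 11.1 points; at least 5 gave 2444 sites, 26.4%, 15.6 points, 1.88% with EC+/+ or EA+/+ H3K27ac and 2.99% with beige Ets1. A gap of at least 1 kb to Flox ATAC and H3K27ac peaks gave 17.6%, 10.5 points and promoters at 6.29%. Counting only overlaps of at least 0.5 of the shorter peak gave promoters at 8.57%, EC+/+ or EA+/+ H3K27ac at 2.30%, CS Ets1 at 0.427% and beige Ets1 at 1.98%. The core without mismatch gave 4.61% and 2.79 points, and windows of 50 and 250 bp gave 13.4% and 20.2%. Promoters of 3 kb held 17.0%. Requiring the summit region to overlap gave 1.99% for H3K27ac of EC+/+ or EA+/+ and 1.99% for beige Ets1. Flox ATAC peaks of at least 5 gave 5584 Flox-only unmarked sites. Against shared unmarked peaks only, the core difference was 5.42 points. The cause of these shifts was not tested. No paired analysis was possible because the labels give each group 1 library and no replicate number. The effect of depth was not examined, and with 1 library per group the spread between animals is unknown.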
